A study of Mus musculus with 4 samples.

Results

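In aorta macrophages of mice exposed to chronic intermittent hypoxia (CIH) or room air (RA), some stretches of chromatin held peaks of acetylated lysine 9 of histone H3 (H3K9ac) that were higher after CIH directly beside peaks that were higher in RA. In the deposited list of 20943 H3K9ac peaks that differed between the exposures, 628 runs of 3 or more peaks were found in which each peak ended exactly where the next began. These runs are called chains here. They were found by sorting the peaks along each chromosome and linking neighbours with a gap of 0 bp, without use of direction or width. The chains held 1999 peaks, 9.54% of the list. Of the other peaks, 5572 lay in 2786 touching pairs and 13372 touched no peak. A peak of a chain that was touched on both sides is called central (743 peaks), and a peak at either end is called flanking (1256 peaks).

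The cells came from C57BL/6J mice. Animals of the CIH group breathed 6.1% O2 for 90 s in alternation with 21% O2 for 90 s during the daylight hours over 20 weeks, and RA animals were kept at 21% O2 in matching cages. CD11b+ cells were taken with magnetic beads from enzyme-digested aortas, and chromatin was precipitated with antibodies against H3K9ac or against trimethylated lysine 27 of histone H3 (H3K27me3). The series has 4 libraries, 1 per mark and exposure, without an input library, and the title of the RA library of the repressive mark writes it as H3K72me3 whereas its antibody entry gives H3K27me3. CD11b is carried by macrophages and by other myeloid cells, and the list of differential peaks gives no signal for unchanged genes, so the cell type could not be checked against its markers.

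H3K9ac sits on nucleosomes around the start sites of active genes and on active enhancers. It is written by histone acetyltransferases, removed by deacetylases, and read by proteins that recruit the transcription machinery. At a transcribed promoter the nucleosomes on either side of the start site carry the mark, while the start site itself is often low in nucleosomes. In macrophages the mark is gained at inflammatory and metabolic genes when the cells are activated. H3K27me3 is laid down by Polycomb complexes on silent genes, and a given lysine 27 carries either a methyl or an acetyl group.

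Genes were assigned by the study's own pairing of selected H3K9ac peaks with genes, of which only a first portion was used here. It named 483 peaks, all found in the deposited list at the same position and with the same direction. Among them were 53 chain peaks, 13 central and 40 flanking, in 47 chains paired with 69 genes. The portion used here leaves out most of the genome. By the paper's account, the study kept the peaks with most reads in each exposure, so the paired peaks are no random sample. The paired chain peaks had a median width of 850 bp against 400 bp for the other chain peaks. How far the selection by reads sets the width, direction, base composition or start sites of paired peaks was not tested.

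Sequence at the start of these paired peaks is shown for the chains that the results return to. All stretches are on the plus strand of build mm9. The chain at Ube2j1, which encodes a ubiquitin-conjugating enzyme of the endoplasmic reticulum, is given first, because its acetylation changed direction a short way from a start site. Its central peak, higher in RA, is shown whole (chr4:33117851-33118150), and the capitals mark a GC box, GGGCGG or its complement, the letters bound by factors of the SP and KLF families.
Ube2j1, central, higher in RA: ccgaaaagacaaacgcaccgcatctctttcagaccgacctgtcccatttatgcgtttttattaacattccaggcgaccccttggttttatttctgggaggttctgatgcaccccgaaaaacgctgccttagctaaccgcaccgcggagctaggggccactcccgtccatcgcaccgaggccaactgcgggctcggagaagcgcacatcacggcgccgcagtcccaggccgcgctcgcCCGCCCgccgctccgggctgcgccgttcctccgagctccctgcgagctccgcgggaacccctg
The next peak, higher in CIH, began at the following base. The stretch shown is chr4:33118251-33118380, and the capitals mark the first 10 transcribed bases of 4933421O10Rik, which reads to the left, and of Ube2j1, which reads to the right.
Ube2j1, flanking, higher in CIH: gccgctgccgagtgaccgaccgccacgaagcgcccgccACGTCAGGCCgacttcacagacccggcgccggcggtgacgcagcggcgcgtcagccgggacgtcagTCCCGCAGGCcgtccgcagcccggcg
At Ppig, the gene of a cyclophilin that binds splicing factors, the RA-high centre held the start site itself (chr2:69560951-69561170, first 10 transcribed bases in capitals).
Ppig, central, higher in RA: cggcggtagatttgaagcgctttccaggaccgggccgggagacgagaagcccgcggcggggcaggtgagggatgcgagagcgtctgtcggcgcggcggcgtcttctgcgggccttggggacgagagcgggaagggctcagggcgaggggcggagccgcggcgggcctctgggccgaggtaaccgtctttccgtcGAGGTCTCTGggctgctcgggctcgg
The opposite case is Arfgef2, which encodes an exchange factor for ARF GTPases of vesicle traffic. There the CIH-high centre held the start of a noncoding RNA, Gm31204, that reads to the left (chr2:166731491-166731650, its first 10 bases in capitals).
Arfgef2, central, higher in CIH: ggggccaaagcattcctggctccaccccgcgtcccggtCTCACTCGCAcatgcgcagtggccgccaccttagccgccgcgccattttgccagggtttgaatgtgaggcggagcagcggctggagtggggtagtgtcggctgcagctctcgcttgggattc
The left edges of both outer peaks are available for the chain at Hnrnpu, the gene of a nuclear scaffold protein that binds RNA, among others. At Hnrnpu they differed in base composition. The other chains of this kind, with Wwtr1 going the other way, are given further below. The RA-high peak at the left end (chr1:180265951-180266160) was 43.8% G and C with 6 CpG and no GC box, whereas the CIH-high peak at the right end, from the base where it met its neighbour (chr1:180267351-180267560), was 75.2% G and C with 30 CpG and 3 GC boxes, in capitals.
Hnrnpu, left flanking, higher in RA: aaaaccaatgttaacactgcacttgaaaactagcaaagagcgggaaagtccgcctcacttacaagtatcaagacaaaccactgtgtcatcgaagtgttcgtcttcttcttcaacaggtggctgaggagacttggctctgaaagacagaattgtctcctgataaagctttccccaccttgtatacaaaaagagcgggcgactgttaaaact
Hnrnpu, right flanking, higher in CIH: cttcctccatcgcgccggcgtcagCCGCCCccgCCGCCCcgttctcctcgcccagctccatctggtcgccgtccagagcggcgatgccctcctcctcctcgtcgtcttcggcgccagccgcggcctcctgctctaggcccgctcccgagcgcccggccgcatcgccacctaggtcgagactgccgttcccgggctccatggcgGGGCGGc
The centre and the right flank are available for the chain at Pmepa1, which encodes an inhibitor of transforming growth factor beta (TGF-beta) signalling, as they were at Ube2j1. The centre (chr2:173100651-173100890) holds a match to the AP-1 letters TGANTCA, and the flank (chr2:173101001-173101240) holds 2 GC boxes.
Pmepa1, central, higher in RA: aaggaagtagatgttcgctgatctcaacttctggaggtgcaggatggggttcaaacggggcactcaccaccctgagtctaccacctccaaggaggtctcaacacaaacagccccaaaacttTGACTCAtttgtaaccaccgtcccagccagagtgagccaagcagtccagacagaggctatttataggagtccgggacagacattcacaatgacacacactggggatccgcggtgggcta
Pmepa1, flanking, higher in CIH: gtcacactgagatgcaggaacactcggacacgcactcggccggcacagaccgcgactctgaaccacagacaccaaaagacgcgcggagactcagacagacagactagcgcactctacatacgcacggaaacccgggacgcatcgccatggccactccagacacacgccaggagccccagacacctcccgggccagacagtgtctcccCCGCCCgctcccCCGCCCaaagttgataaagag
An AP-1 match also stood in the centre at Tlr4, the receptor for lipopolysaccharide (chr4:66489044-66489193).
Tlr4, central, higher in RA: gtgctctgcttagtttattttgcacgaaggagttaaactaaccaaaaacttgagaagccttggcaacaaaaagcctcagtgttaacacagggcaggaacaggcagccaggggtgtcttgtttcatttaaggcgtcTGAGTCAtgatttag
For Tlr2, the receptor for bacterial lipopeptides, the centre itself carried no sequence here, and the RefSeq promoter is shown instead (GRCm38.p6, minus strand, 250 bases before and 50 after the start, first 10 transcribed bases in capitals). Its start site was placed in the CIH-high centre of the chain.
Tlr2, RefSeq promoter: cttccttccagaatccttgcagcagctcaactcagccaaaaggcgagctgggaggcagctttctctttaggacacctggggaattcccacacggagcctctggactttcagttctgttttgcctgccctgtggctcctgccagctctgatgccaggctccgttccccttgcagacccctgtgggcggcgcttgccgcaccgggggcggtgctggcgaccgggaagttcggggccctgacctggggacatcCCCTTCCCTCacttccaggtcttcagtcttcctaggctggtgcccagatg

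The first question was how direction was ordered along a chain. It alternated without exception in all 628 chains, so that a peak higher in CIH was always followed by a peak higher in RA. The same held for all 4157 touching pairs of the list, of which 1371 lay within chains, and the peak numbers of all 4157 pairs were consecutive. Peaks set apart by a short gap did not alternate in this way. Of 42 neighbours separated by 50 bp, 13 had opposite directions, and of 573 neighbours separated by 50 to 1000 bp, 173 did. No peaks overlapped and all edges lay on multiples of 50 bp. How the windows of the peak caller were joined into peaks is not given in the sources used here, so whether touching peaks of the same direction could have been listed at all was not tested.

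Central and flanking peaks differed in direction. Over the whole list 45.4% of peaks had more H3K9ac in CIH, and the remaining 54.6% had more in RA. Of the 743 central peaks 280 were higher in CIH (37.7%, 95% interval 34.2 to 41.3) and 463 in RA. Of the 1256 flanking peaks 811 were higher in CIH (64.6%, 61.9 to 67.2) and 445 in RA. The intervals are exact binomial (Clopper-Pearson) intervals and cover counting only, and they are too narrow because the peaks of a chain are not independent. Both ends behaved alike, with 419 of 628 left flanks (66.7%) and 62.4% of the right flanks higher in CIH. The share among peaks that touched no other was 42.1%, below the flanks and above the centres. In touching pairs it was 50%, which the alternation fixes.

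Because direction alternated, the shares of centres and flanks are 1 observation and not 2. It rests on the chains with an odd number of peaks, 539 in all, of which 361 had both ends higher in CIH and 178 had both ends higher in RA. Chains of 3 peaks made up 527 of these. A centre higher in RA between flanks higher in CIH, written CIH-RA-CIH, was found in 353 of them (67.0%, 62.8 to 71.0), and the mirror pattern RA-CIH-RA in 174 (33.0%, 29.0 to 37.2). Among the 12 chains of 5 peaks, 8 had CIH-high ends and 4 had RA-high ends. In the 89 chains with an even number of peaks the ends have opposite directions, and the CIH-high end was on the left in 58.

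The difference in number between the patterns was spread over the genome. Triples with an RA-high centre were the majority on 17 of the 19 autosomes. They ranged from 29.4% on chromosome 10 (5 of 17) to 78.6% on chromosome 11 (33 of 42), and chromosome 18 stood at 50%. On chromosome X, 6 of 7 triples had an RA-high centre. The share of peaks that lay in chains ranged from 5.49% on chromosome 13 to 12.1% on chromosome 11 and was 13.0% on chromosome X (25 of 192). No chain was found on chromosome Y or on the mitochondrial genome, where the list had 4 and 2 peaks.

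**Figure D1:**
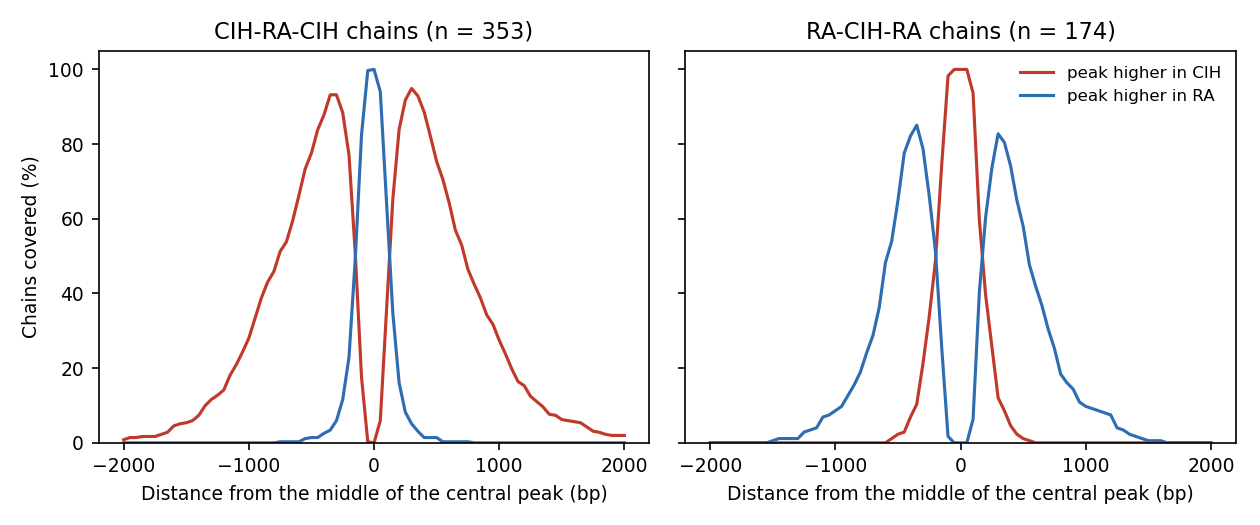
Percent of 3-peak chains covered by a peak higher in CIH (red) or in RA (blue) at each distance in bp from the middle of the central peak, for 353 CIH-RA-CIH chains (left) and 174 RA-CIH-RA chains (right). At 300 bp to the left, CIH-high flanks covered 93.2% of the CIH-RA-CIH chains, whereas the CIH-high centre still covered 21.3% of the RA-CIH-RA chains.

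The second question was how wide the peaks were. Over the whole list peaks higher in CIH were wider than peaks higher in RA, with medians of 600 and 300 bp, so width was compared within a direction. RA-high peaks had a median of 250 bp in the centre of a chain (n = 463, mean 299 ± 170 bp SD) and of 350 bp at its ends (n = 445, mean 411 ± 237 bp SD). The corresponding medians were 300 bp in touching pairs and 350 bp for peaks that touched none. CIH-high peaks had a median of 350 bp in the centre (n = 280, mean 427 ± 207 bp SD) and of 550 bp at the ends (n = 811, mean 664 ± 395 bp SD). In touching pairs their median was 500 bp and for lone peaks 700 bp. In both directions the centres were thus the narrowest class, and the spread of the classes overlapped. RA-high centres reached from 50 to 1550 bp and CIH-high flanks from 150 to 3750 bp. A central peak is bounded on both sides by a peak of the opposite direction, and how far this alone sets its width was not tested. The CIH H3K9ac library had the larger sequencing yield in the paper, and the bearing of yield on peak width was not tested.

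**Figure D2:**
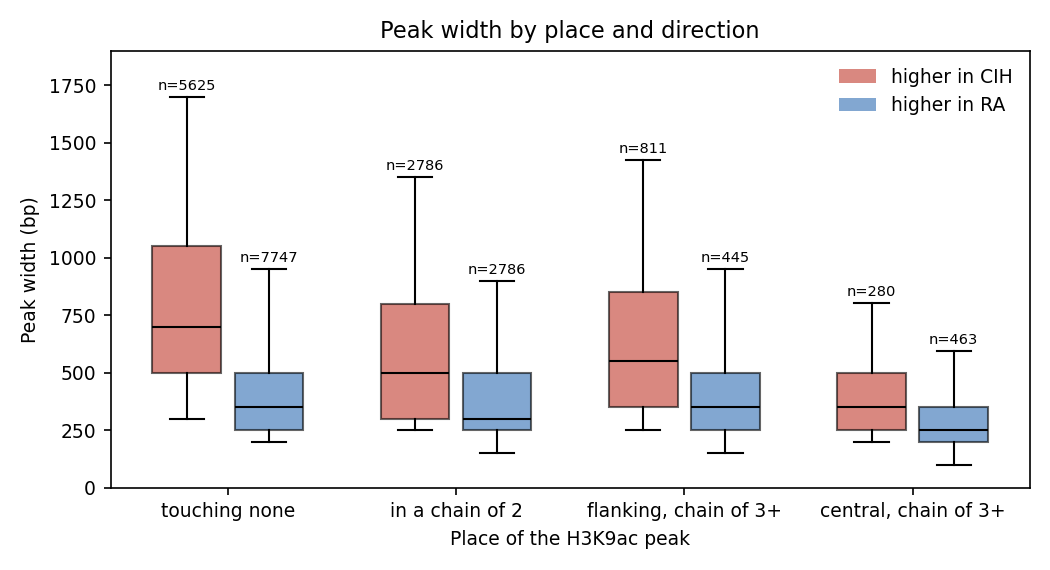
Width in bp of H3K9ac differential peaks by place and direction, with the number of peaks above each bar. Boxes give the quartiles, the black line the median and the whiskers the 5th and 95th percentiles; in both directions the central peaks of chains are the narrowest class.

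The 2 patterns of 3 peaks had different shapes. They also put opposite directions at the centre, and CIH-high peaks were wider than RA-high peaks over the whole list. How much of the contrast in shape follows from this was not tested. In CIH-RA-CIH chains the median widths were 600, 250 and 550 bp from left to right, and the centre was narrower than both flanks in 247 of 353 (70.0%, 64.9 to 74.7). In RA-CIH-RA chains all 3 medians were 350 bp, and the centre was narrower than both flanks in 45 of 174 (25.9%, 19.5 to 33.0). A centre of at most 200 bp was found in 126 of the first kind (35.7%) and in 11 of the second (6.32%). A centre above 500 bp was found in 29 (8.22%) and 45 (25.9%). The widest peak was central in 26 (7.37%) and 53 (30.5%), and in 107 of all 628 chains (17.0%, 14.2 to 20.2). The median share of the span taken by the centre was 17.6% and 33.3%. The profile of coverage by distance shows the same contrast. CIH-RA-CIH chains had a narrow notch of RA-high peaks between broad CIH-high shoulders. RA-CIH-RA chains had blocks of like median width, although the flanks of a single chain were seldom equal.

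The flanks of a chain were seldom of equal width. The wider flank had a median of 800 bp and the narrower of 400 bp in CIH-RA-CIH chains, and 450 and 250 bp in RA-CIH-RA chains. Neither side was favoured, with the left flank wider in 155, the right in 180 and both equal in 18 of the first kind, and 81, 84 and 9 of the second. Across chains the widths of left and right flank had a Spearman correlation of 0.03 and 0.10, and the width of the centre and the summed flanks one of -0.10 and -0.08, as a description over 353 and 174 chains called from the same libraries.

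Chains spanned 600 to 5200 bp, with a median of 1500 bp (quartiles 1150 and 1850 bp), and covered 979 kb in all. Of these bases 67.2% lay in CIH-high peaks, against 59.9% over the whole list. CIH-RA-CIH chains had a median span of 1600 bp with 81.4% of their bases in CIH-high peaks, and RA-CIH-RA chains one of 1150 bp with 33.8%. The longest chain, chr8:87500601-87505800, was a CIH-high stretch of 5100 bp broken by an RA-high peak of 100 bp. The next were chr11:69221001-69226100 (5100 bp) and chr6:31165451-31169500 (4050 bp), also CIH-RA-CIH, with RA-high centres of 800 and 600 bp. The chains with most peaks were not the longest. The single chain of 6 peaks, chr12:86813251-86815450, spanned 2200 bp in steps of 350, 800, 100, 350, 100 and 500 bp beginning with RA, and the 12 chains of 5 peaks spanned 1200 to 2500 bp.

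The distance to the next peak was also measured. The nearest other H3K9ac differential peak lay at a median of 27700 bp from a chain, 28700 bp from a pair and 34750 bp from a lone peak. It lay within 1000 bp of 30 chains (4.78%), of 204 pairs (7.32%) and of 895 lone peaks (6.69%). Chains thus had the shortest median distance and also the lowest share with a neighbour this close. Just outside the definition were 20 touching pairs with a further peak 50 bp away. The peaks of these pairs had a median width of 375 bp, and 50% of them were higher in CIH, as the alternation fixes. The repressive mark did not coincide with any chain, since 0 of 1999 chain peaks shared a base with one of the 146 H3K27me3 differential peaks. Over the whole list 35 H3K9ac peaks did (0.167%), 31 of them lone and 4 in pairs. The background is low and the lists hold only differential peaks of either mark, so nothing is read from the 0.

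The chains with gene pairings were 26 of CIH-RA-CIH, 19 of RA-CIH-RA and 1 of each pattern of 4 peaks. Their spans ranged from 1000 to 3150 bp with a median of 1700 bp. The paired centres comprised 11 RA-high and 2 CIH-high peaks, and the paired flanks 21 CIH-high and 19 RA-high peaks. Chains are described in detail if at least 2 of their peaks were paired or if a paired gene belonged to 1 of 11 gene lists. The 6 longest chains with a paired centre and the 6 longest with a paired flank were also included, which gave 22 chains. Of all 483 paired peaks 53 lay in chains (11.0%). This share is over peaks whereas the lists count genes, so it is only a rough background for the counts of list genes that follow. The lists are short and were chosen with results known, and a peak can be paired with several genes, so the counts are not ranked. How many genes of a list have any paired peak can itself follow from that choice.

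In the innate immune list, 6 of 18 genes of Toll-like receptor and NF-kB signalling had a paired H3K9ac peak of any kind (Tlr2, Tlr4, Tank, Tifa, Rela and Nfkb2). Among these, 2, both receptors, were in chains, beside 53 of all 483 paired peaks (11.0%). The chains at these receptors had opposite orders. At Tlr4 (chr4:66488501-66490600, also paired with Brinp1) a CIH-high peak of 400 bp, an RA-high centre of 1100 bp and a CIH-high peak of 600 bp followed each other, so that the widest block was higher in RA. At Tlr2 (chr3:83645151-83646650) an RA-high peak of 250 bp, a CIH-high centre of 200 bp and an RA-high peak of 1050 bp followed each other, and the start site lay 129 bp into the CIH-high centre. RA-high bases thus outnumbered CIH-high bases at both receptors, at Tlr4 by a small margin.

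Of the list for TGF-beta signalling and matrix, 5 of 16 genes were in chains, out of 7 with any paired peak, and these 5 genes lay in 4 chains. Tgfbr1 encodes the type I receptor. Its chain, shared in the pairing with the collagen gene Col15a1 (chr4:47233651-47235500), had CIH-high flanks of 300 and 450 bp around an RA-high centre of 1100 bp. The inhibitors of the pathway followed opposite orders. Pmepa1 (chr2:173100151-173101750) had CIH-high flanks of 350 and 750 bp around an RA-high centre of 500 bp, and Ski, a repressor of SMAD proteins (chr4:154608901-154609900), had RA-high flanks of 400 and 350 bp around a CIH-high centre of 250 bp. Thbs3, a thrombospondin of the matrix, had a chain of 4 peaks (chr3:89030701-89033050) of 1400, 200, 350 and 400 bp, beginning with CIH. Wwtr1, which encodes the Hippo pathway coactivator TAZ, belonged to no list and had 2 paired peaks, RA-high flanks of 750 and 1200 bp around a CIH-high centre of 200 bp that held 2 start sites of the gene (chr3:57378901-57381050).

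In lipid handling 3 of 17 genes were in chains, out of 7 with any paired peak. Cyp51, the lanosterol demethylase of cholesterol synthesis, was paired together with Mterf1b, with CIH-high flanks of 850 and 550 bp around an RA-high centre of 200 bp (chr5:4104001-4105600). Cyp7a1, which starts the conversion of cholesterol to bile acids in liver, was paired together with Sdcbp, the gene of the adaptor syntenin, with CIH-high flanks of 1100 and 1250 bp around an RA-high centre of 150 bp (chr4:6292251-6294750). Pprc1, a coactivator related to PGC-1 that drives mitochondrial genes, had the mirror order, with RA-high flanks of 250 and 1250 bp and a CIH-high centre of 250 bp (chr19:46131001-46132750). The chains paired with both enzymes therefore had broad CIH-high flanks, and the chain paired with Pprc1 a broad RA-high one. Which gene of a shared pairing the acetylation belongs to was not tested.

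RNA processing had 2 of 15 genes in chains, out of 13 with any paired peak. Hnrnpu had the longest of the paired 4-peak chains (chr1:180265951-180269050), with an RA-high peak of 650 bp, a CIH-high peak of 450 bp, an RA-high peak of 300 bp and a CIH-high peak of 1700 bp. Rbm17, a splicing factor of the U2 complex, had CIH-high flanks of 900 and 550 bp around an RA-high centre of 200 bp (chr2:11422101-11423750). In both the widest peak was a CIH-high flank.

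Protein turnover and chaperones had 1 gene in a chain, Ube2j1, of 16 genes and 15 with any paired peak. The chain at Ube2j1 (chr4:33116351-33119500, 3150 bp) was the longest with a pairing, CIH-high flanks of 1500 and 1350 bp around the RA-high centre of 300 bp shown above. The Ube2j1 start site lay 204 bp and the 4933421O10Rik start site 147 bp into the right flank. The macrophage and myeloid list also had 1 gene of 20 in a chain, out of 7 with any paired peak (Mertk, Fcgr3, Lpxn, Ptafr, Fgr, Pik3ap1 and Cnr2). This was Lpxn, the gene of the adhesion adaptor leupaxin, paired with Zfp91, with CIH-high flanks of 800 and 350 bp around an RA-high centre of 200 bp (chr19:12869951-12871300). Genes of other aortic and blood cells had 0 of 22 in chains and 2 with any paired peak (Postn and Cd6). The remaining lists had none in chains either, out of 4 of 18 genes with any paired peak for the hypoxia response (Arnt, Edn2, Eno1 and Mxi1), 8 of 21 for immediate early, NR4A and KLF genes, 4 of 15 for NRF2 and antioxidant genes, and 7 of 14 for p53 and DNA damage. A gene without a paired peak may lie outside the portion of the pairing used here, so these counts are no measure of absence.

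The other chains met the rule by their span or by having 2 paired peaks. Long chains with a paired RA-high centre, beside Tlr4 and Tgfbr1, were at Ppig (800 bp between CIH-high flanks of 450 and 700 bp, chr2:69560501-69562450) and at Top1, the gene of DNA topoisomerase I, paired with Plcg1 (500 bp between flanks of 650 and 1100 bp, chr2:160471201-160473450). A long chain with a paired CIH-high centre was at Arfgef2 (1150 bp between RA-high flanks of 200 and 750 bp, chr2:166731201-166733300). Long chains with a paired CIH-high flank enclosed RA-high centres of 100 to 350 bp. They were found at Cisd2, which encodes an iron-sulphur protein of the endoplasmic reticulum and mitochondria (flanks of 900 and 1500 bp, chr3:135084851-135087600), and at Fam89b (1350 and 1150 bp, chr19:5724001-5726650). They were also found at Tsc22d2 together with 1700007F19Rik (1500 and 1250 bp, chr3:58218001-58220850) and at Gm12511 with 2310081O03Rik (900 and 1550 bp, chr4:55663001-55665650). At Fam45a (1550 and 900 bp, chr19:60865051-60867600) the RA-high centre was 100 bp wide.

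**Figure D3:**
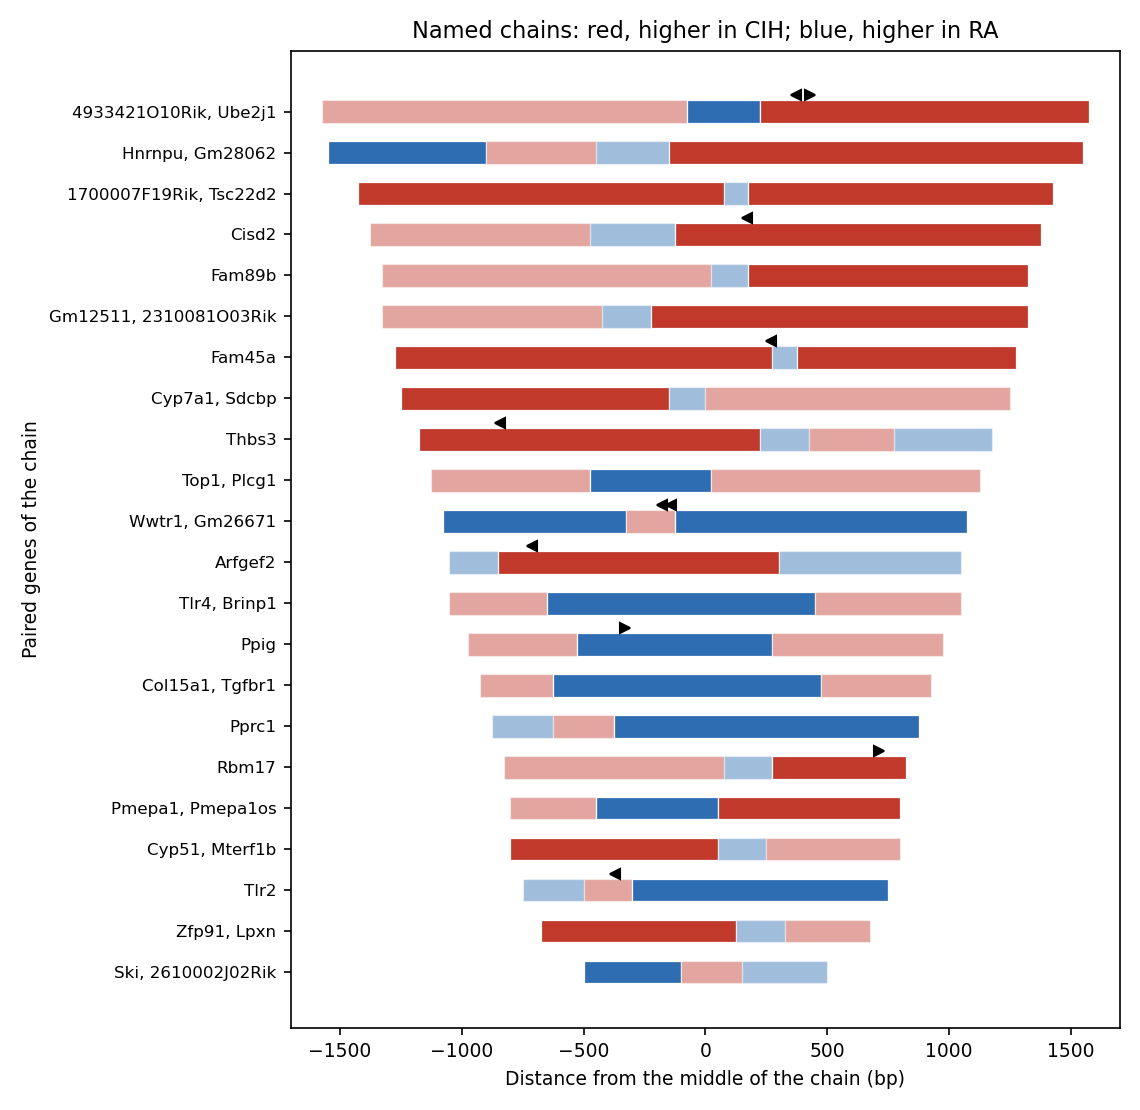
The 22 chains named by the rule, each drawn to scale as its peaks (red, higher in CIH; blue, higher in RA) against the distance in bp from the middle of the chain. Solid bars are peaks with a gene pairing, pale bars are the other peaks of the same chain, and black triangles are RefSeq start sites pointing in the direction of transcription; the start sites at Ube2j1 and Cisd2 lie in CIH-high flanks and that of Ppig in an RA-high centre.

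Start sites were placed by matching the 32851 RefSeq promoter sequences (GRCm38.p6) to the sequence at the left edge of each paired peak, so that only sites near these edges could be found. In the 47 chains, 22 start sites were placed in 17 chains, and all 22 lay inside the chain. The flanking peaks held 15 of them, 9 in CIH-high and 6 in RA-high flanks, and the central peaks held 7 (31.8%), 4 in CIH-high and 3 in RA-high centres. Central peaks made up 18.9% of the bases of these 17 chains. Only the left edges of paired peaks were searched and not all these bases, so the shares of sites and of bases cannot be compared. Several start sites lay close to the point where direction changed. The left edges of centres and right flanks are such points, whereas those of left flanks are not, so these points were among the stretches searched. At Fam45a the start site of the neighbouring gene Eif3a, a translation initiation factor, lay 4 bp before the end of the CIH-high left flank, and at Mrrf, a mitochondrial ribosome recycling factor, the site lay 17 bp inside an RA-high flank. Genes read in opposite directions from nearby start sites were also met. Eif1ad and Banf1 had sites 62 and 125 bp into an RA-high flank, and the proteasome gene Psma7 and Ss18l1 had theirs 268 and 287 bp into another. In 3 chains the RA-high centre had a start site, Ppig, Psmd5 (a proteasome assembly chaperone) and Clcn6 (a chloride transporter of endosomes), at 194, 381 and 271 bp from its left edge.

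Base composition was compared in the first 250 bases from the left edge of each paired peak. For a left flank this window is the outer edge of the chain, and for a right flank it is the edge that meets the centre. GC content had a median of 45.2% in 19 left flanks (30.8 to 76.0%), 55.2% in 13 centres (48.0 to 72.8%) and 62.0% in 21 right flanks (50.4 to 78.6%). The medians for pairs and for lone peaks were 52.4% and 51.2%, and 52.4% for all 483 paired peaks. CpG counts in the window followed the same order, with medians of 5, 15 and 21, against 7 for all paired peaks. The ranges overlapped, since the left flanks of Wwtr1, Cyp51 and Lpxn had 65.6, 68.8 and 76.0%. The lowest values were at left flanks too, as at Fam45a with 30.8% and Lmo2 with 34.0%. By median, the left outer edges were therefore poorer in CpG than the edges between centre and right flank in these peaks. Where both outer peaks of a chain were paired, GC rose from left to right at Hnrnpu (44.8 to 73.6%) and Fam45a (30.8 to 58.4%). It also rose at Tsc22d2 with 1700007F19Rik (38.8 to 62.0%), and it fell at Wwtr1 (65.6 to 57.6%). The comparison is a description without a test, as the study had selected the peaks, and right outer edges were not measured.

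**Figure D4:**
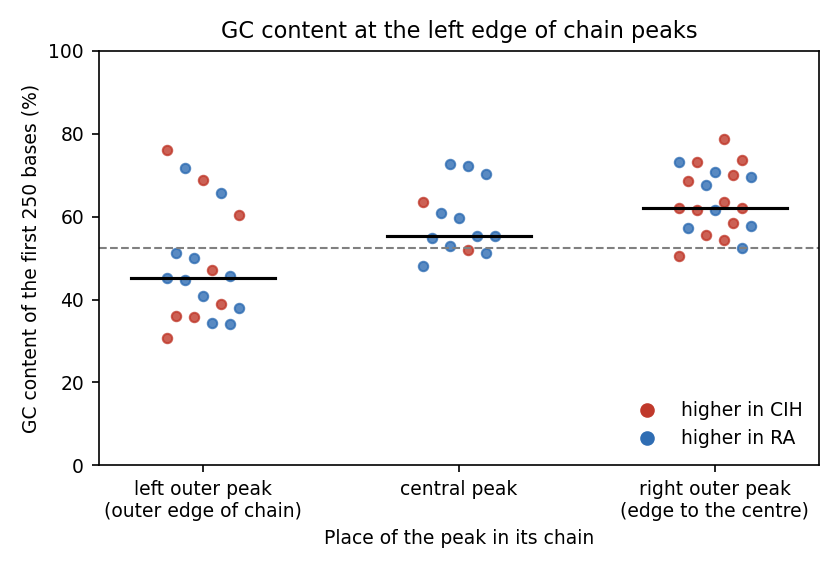
GC content in percent of the first 250 bases from the left edge of the 53 paired chain peaks, by place in the chain and coloured by direction (red, higher in CIH; blue, higher in RA). Black bars are medians (45.2, 55.2 and 62.0%) and the dashed line is the median of all 483 paired peaks; peaks of both directions are found at each place.

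The GC box was the motif whose share differed most between the places of a chain. Each motif was searched on both strands and compared with windows of 250 bases of the RefSeq promoters. The GC box GGGCGG stood in 11 of 21 right flanks (52.4%), 5 of 13 centres (38.5%) and 3 of 19 left flanks (15.8%), together 19 of 53 chain peaks (35.8%), with 25.7% of all paired peaks and 32.7% of promoters. The share in chain peaks was thus close to that of promoters. Ambiguous bases, present in 11 of the 53 chain windows and 85 of all 483, could hide matches. The promoter windows were the 250 bases before the start site, another kind of window than the left edge of a peak. The hypoxia-response core ACGTG was found in 8 of 53 chain peaks (15.1%), with 17.4% of all paired peaks and 16.6% of promoters. These were 8 of 40 flanks (20.0%) and 0 of 13 centres, and with so few centres nothing is read from the 0. The letters GAGGAAG of PU.1, the lineage factor of myeloid cells, were found in 5 (9.43%; 10.6% of promoters). The ETS letters CCGGAAG, which share their last 5 letters with those of PU.1, were found in 3 (5.66%; 6.91%). TGANTCA of AP-1 was found in 1, a flank (1.89%; 6.75%), and in 0 of 13 centres. TGCGCA of NRF1 was found in 1 (1.89%; 6.43%). The AP-1 letters in the centres at Pmepa1 and Tlr4 lie beyond the first 250 bases and are not in the AP-1 count. No background was measured for bases beyond the window. A match describes the letters only and is no evidence of binding.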

How the data were processed

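H3K9ac and H3K27me3 were profiled by ChIP-Seq in aorta macrophages, with 1 library per mark and exposure. The submitters' notes on processing name BWA 0.7.12, MACS2 2.1.0, Trimmomatic 0.32, bedtools 2.23.0, Picard 1.121 and SAMtools 1.2, in no stated order, and build mm9. For each mark the authors deposited a single list of peaks that differed between exposures, giving position, name, score and sign; a minus sign marks peaks higher in CIH. The deposited score is 1000 in every row and was not used. The lists give no counts or depth per library, so no exposure effect was tested and no p-value is given. The paper reports a larger sequencing yield for the CIH H3K9ac library than for the RA one.

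Sorted H3K9ac peaks were linked at a gap of 0 bp, and chains of at least 3 peaks were kept, with Python 3.11.15, numpy 2.4.6, pandas 2.3.3 and scipy 1.17.1. The linking was checked on simulated data. Exact Clopper-Pearson 95% intervals were set on shares. Overlap with H3K27me3 required 1 bp. Linking at gaps of 50 or 100 bp, removal of peaks under 150 bp, removal of chromosome X and chains of at least 4 peaks were alternatives.

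Gene names and peak sequences came from the study's list of selected peaks, held in part, matched by peak name; start sites and promoters came from RefSeq (GRCm38.p6) and were placed in mm9 by exact runs of 24 bases. Ambiguous bases were left out of GC content, and they could hide CpG and motif matches. Chains were named if at least 2 peaks were paired, if they had at least 5 peaks and any pairing (none did), if a paired gene was on 1 of 11 gene lists, or if they were among the 6 longest with a paired centre or the 6 longest with a paired flank. The chains, gene lists and motifs were chosen with earlier results of these data known. Microarray, flow cytometry and DNA methylation data of the study were not analysed here, and 1 gene was left out of its list and is not reported here.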

Additional observations from a re-analysis of the deposited data

How the results depend on the processing

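Of 35 alternative values, 31 kept their direction or size. The other 4 came from requiring at least 4 peaks, which left 101 chains in place of 628 and gave 49.1% of central and 52.0% of flanking peaks higher in CIH, in place of 37.7% and 64.6%. The widest peak was then central in 27.7% of chains, in place of 17.0%. A chain of even length holds as many CIH-high as RA-high centres and ends by alternation, and 89 of these 101 chains were even, so the contrast in direction rests on chains of 3 peaks. The share of 3-peak chains with a CIH-high centre lay between 33.0% and 34.7% with and without the other alternatives. No paired analysis was possible because each exposure had 1 library per mark, and for the same reason no replicate could be left out. Differences between the exposures cannot be told apart from differences between these 2 H3K9ac libraries, and no input library was used. The first portion of the gene pairing covers 47 of 628 chains.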
